A study of Mus musculus with 12 samples.

Results

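The genes described here are 10 members of the fibroblast growth factor (FGF) system of lung growth: the ligands Fgf7, Fgf10, Fgf9 and Fgf18, the receptors Fgfr1, Fgfr2, Fgfr3 and Fgfr4, and the feedback inhibitors Spry1 and Spry2. They were picked by symbol as known parts of this system, with earlier results of these data known. All 10 were found among the 24421 rows of each count table. RNA was sequenced from liver and lung of newborn Man1a2+/+ (WT) and Man1a2-/- (null) mice, in 4 groups of 3 libraries, 12 in total. The product of Man1a2 is an enzyme of the Golgi that removes mannose from N-linked glycans. The null mice came from crosses of Man1a2+/- carriers of the Man1a2tm1.1Ahe allele, carry the deletion of exon 2 in every cell, and are known to die of respiratory failure after birth. Tissues were taken soon after birth, no mouse received an agent, and the supplement of the study names 3 mice of each genotype as the source of both tissues.

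In the developing lung, FGF10 and FGF7 are made by mesenchyme and act on the epithelium through the IIIb splice form of FGFR2, which drives branching and epithelial growth. FGF9 comes from mesothelium and epithelium and acts on mesenchyme, and FGF18 is a ligand of the later, alveolar phase with FGFR3 among its receptors. Receptor activation runs through the adaptor FRS2 to the RAS and ERK cascade, which switches on Sprouty genes, and their proteins damp the same cascade. In liver FGFR4, with the co-receptor beta-Klotho (Klb), receives a hormone-like FGF from the gut and restrains bile acid synthesis. Counts per gene do not separate the splice forms of the receptors.

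The promoters of 4 members are shown because most of the text on genotype below concerns them: both Sprouty genes and Fgfr4 in liver, and Fgf18 in lung. In the main edgeR fits the 3 liver differences were called, and only that of Spry1 whichever library was left out. The Fgf18 difference was not called (adjusted p = 0.0687). Promoter entries were found in RefSeq (GRCm38.p6) for 9 of the 10 members, Fgfr1 being without one. Each line gives the 250 bases before the annotated start, 5′ to 3′ on the strand of the gene. Capitals mark the ETS core CCGGAA or its reverse TTCCGG, which ETS factors downstream of ERK can bind, and the GC box GGGCGG or its reverse CCGCCC.
Spry1: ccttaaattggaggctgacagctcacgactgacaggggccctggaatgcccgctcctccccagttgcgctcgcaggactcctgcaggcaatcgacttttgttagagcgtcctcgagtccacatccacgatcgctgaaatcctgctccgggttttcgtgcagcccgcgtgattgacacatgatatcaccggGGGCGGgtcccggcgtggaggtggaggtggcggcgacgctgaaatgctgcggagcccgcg
Spry2: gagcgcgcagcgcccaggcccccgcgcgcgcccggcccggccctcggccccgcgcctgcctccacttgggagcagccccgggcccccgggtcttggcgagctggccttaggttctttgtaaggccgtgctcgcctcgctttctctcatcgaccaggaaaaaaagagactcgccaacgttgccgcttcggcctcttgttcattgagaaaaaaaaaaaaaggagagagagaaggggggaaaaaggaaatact
Fgf18: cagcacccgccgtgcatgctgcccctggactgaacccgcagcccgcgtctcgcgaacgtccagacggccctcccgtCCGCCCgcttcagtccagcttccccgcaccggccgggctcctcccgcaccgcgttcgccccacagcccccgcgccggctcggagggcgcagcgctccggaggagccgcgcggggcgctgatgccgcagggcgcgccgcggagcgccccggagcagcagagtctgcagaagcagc
Fgfr4: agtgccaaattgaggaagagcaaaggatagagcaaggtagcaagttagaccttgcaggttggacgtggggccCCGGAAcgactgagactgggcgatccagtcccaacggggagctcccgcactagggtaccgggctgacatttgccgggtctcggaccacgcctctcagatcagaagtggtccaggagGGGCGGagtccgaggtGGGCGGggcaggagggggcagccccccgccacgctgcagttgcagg
These windows lie at chr3:37639697-37639946 (Spry1, + strand), chr14:105896820-105897069 (Spry2, − strand), chr11:33147401-33147650 (Fgf18, − strand) and chr13:55152568-55152817 (Fgfr4, + strand). Fgfr4 held 1 ETS core and 2 GC boxes, Spry1 and Fgf18 held 1 GC box each, and Spry2 held neither motif. Of all 32851 promoter windows of the same length, 12.03% held the ETS core and 32.7% the GC box on either strand. The Spry2 window, with a run of adenines near the start, and the Spry1 window were equally rich in G and C, at 62.4% each. A match of letters describes the sequence only.

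Counted reads ranged from 26759463 to 42914295 per library, and 3 reads stood at 0.0699 to 0.112 CPM, the count scaled to the library's depth. Levels below are CPM adjusted with trimmed-mean (TMM) factors over all 12 libraries. Man1a2 itself, the deleted gene, stood at 87.0, 54.2 and 68.5 CPM in WT livers and at 53.7, 48.2 and 50.1 in null livers. In lung it stood at 105, 75.5 and 107 CPM in WT and at 42.7, 49.7 and 50.2 in null. Null was below WT without overlap in both tissues. Of all genes, 46.6% in liver and 36% in lung had no overlap in either direction. The quasi-likelihood test of edgeR, adjusted by the Benjamini-Hochberg method, did not call Man1a2 (adjusted p = 0.0809 in liver and 0.0614 in lung). DESeq2 called it in both (adjusted p = 0.0473 and 0.000287). Without the library labelled null 1 of the tissue, edgeR called it in lung (-0.95 ± 0.16, adjusted p = 0.0043) and not in liver (-0.50 ± 0.20, adjusted p = 0.105). Reads from exons outside the deleted part still count here.

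A pair of null libraries stood apart and bear on most results. The library labelled null lung 1 held 19388 CPM of 8 skeletal and cardiac muscle genes, against 93.4 to 296 in the other 5 lungs. Its 8 lung epithelial markers summed to 573 CPM, against 18124 to 25215 in the other lungs, so it went against its label as whole lung. Its mesenchymal markers reached 10353 CPM against 2036 to 2413, and its endothelial markers 588 CPM against 1501 to 2232. The library labelled null liver 1 held 6667 CPM of the muscle genes, against 5.34 to 6.81 in the other 5 livers, and 2529 CPM of mesenchymal genes against 626 to 796. Its hepatocyte markers, at 209073 CPM, lay within the range of the other livers (170040 to 250817), while the lungs held 29.6 to 509. Not every mesenchymal gene shared the higher sum of null liver 1. Tcf21 and Pdgfrb were lower in every null liver than in every WT liver (log2 difference -1.06 and -0.39). None of the muscle, epithelial or mesenchymal markers was at 0 in every library of a group. Mesothelial markers summed to 391 to 737 CPM in lung and 49.4 to 93.9 in liver. Of 6 erythroid genes 3, all haemoglobins, were at 0 in liver, and the list summed to 2051 to 3681 CPM there. Many results below, though not all, are given with and without the null 1 libraries. The part of muscle RNA in these libraries was not tested. In whole tissue, fewer cells of a type and less RNA per cell cannot be told apart.

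**Figure D1:**
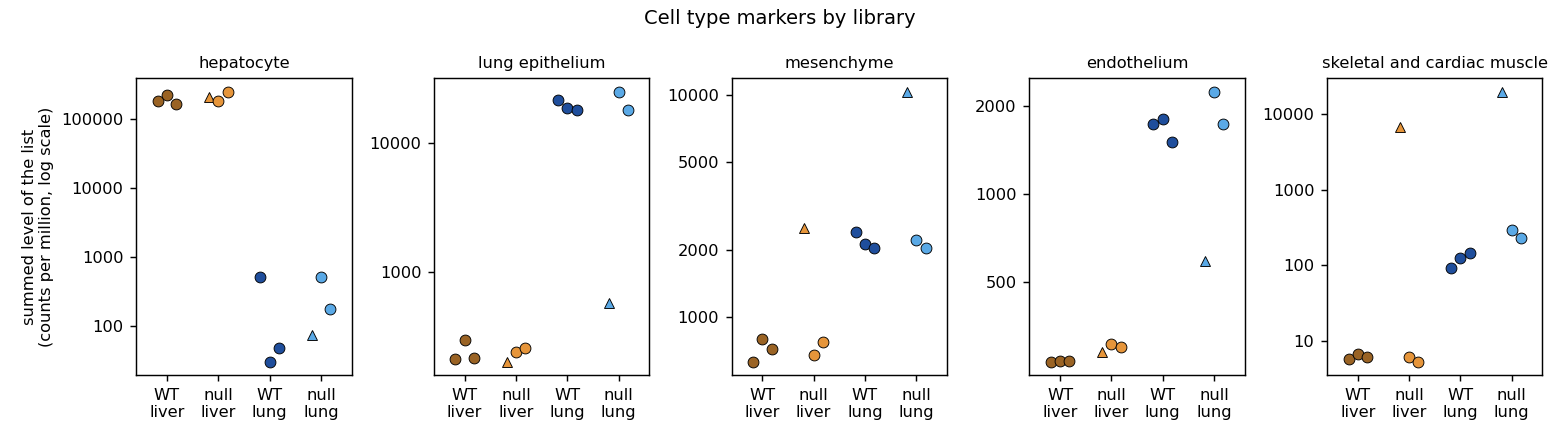
Summed level of 5 marker lists in each library, in TMM-scaled CPM on a log axis, with triangles for the libraries labelled null liver 1 and null lung 1. Null lung 1 sat at 573 CPM of lung epithelial genes, below the other lungs (18124 to 25215), and at 19388 CPM of muscle genes.

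The first comparison asked how the FGF system of newborn lung differs from that of liver in WT mice. All 10 members were higher in WT lung than in WT liver, by 1.39-fold for Fgfr4 to 228-fold for Fgf10. Of all genes tested 77% were called in this comparison and 39.8% were called higher in lung. To be called, a gene needed an adjusted p under 0.05 as well as a 1.2-fold difference or more.

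Fgf10 (chr13:118714699-118792573 on GRCm38, + strand), the branching ligand, was nearly absent from WT liver, at 0.0352, 0.289 and 0.171 CPM (1 to 7 reads). It stood at 27.4, 36.5 and 48.4 CPM in WT lung, a log2 difference of 7.83 ± 0.38 (SE, n = 3 per group, adjusted p = 9.81e-08). Fgf7 (chr2:126034658-126091185, + strand), which shares its epithelial receptor, stood at 0.176, 0.0825 and 0.0684 CPM in WT liver (2 to 5 reads) and at 8.32, 8.48 and 13.2 in WT lung. Its difference was 6.45 ± 0.37 (adjusted p = 2.53e-07). Both ligands sat at or near the level of 3 reads in liver, so the size of these folds rests on a handful of reads.

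Fgf18 (chr11:33116970-33147400, − strand), the alveolar-phase ligand, stood at 0.105, 0.413 and 0.239 CPM in WT liver and at 18.4, 15.9 and 15.1 in WT lung, a log2 difference of 6.04 ± 0.29 (adjusted p = 7.84e-08). Fgf9 (chr14:58070671-58112854, + strand), the mesothelial and epithelial ligand, was the scarcest ligand in lung, at 1.97, 1.21 and 1.37 CPM, against 0.141, 0.536 and 0.274 in WT liver. Its difference of 2.28 ± 0.42 (adjusted p = 0.000734) was the smallest of the 4 ligands. Every WT lung was above every WT liver for each ligand, as was so for 42.5% of all genes.

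Fgfr3 (chr5:33721724-33737068, + strand) had the largest tissue difference of the receptors, at 9.42, 5.65 and 7.05 CPM in WT liver and 181, 178 and 173 in WT lung (log2 difference 4.57 ± 0.18, adjusted p = 2.47e-08). Fgfr2 (chr7:130162451-130266808, − strand), the epithelial receptor of FGF7 and FGF10, stood at 37.6, 36.0 and 35.5 CPM in WT liver and at 267, 270 and 279 in WT lung, a difference of 2.89 ± 0.10 (adjusted p = 1.12e-08). Fgfr1 (chr8:25518759-25575718, + strand), which in lung is largely a mesenchymal receptor, stood at 15.5, 14.7 and 17.1 CPM in WT liver and at 108, 84.0 and 108 in WT lung, a difference of 2.65 ± 0.13 (adjusted p = 8.17e-08). Its exons overlap Gm16159 on the opposite strand, which had at most 4 reads in any library. Fgfr4 (chr13:55152818-55168759, + strand), the receptor that with Klb restrains bile acid synthesis, was closest between tissues, at 23.5, 26.9 and 27.9 CPM in WT liver and 36.7, 38.7 and 34.7 in WT lung (0.48 ± 0.09, adjusted p = 0.00128). That call was lost when all 12 libraries shared 1 estimate of spread (adjusted p = 0.36).

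The Sprouty genes followed the same order. Spry1 (chr3:37639947-37644599, + strand) stood at 25.1, 23.9 and 25.5 CPM in WT liver and 196, 193 and 198 in WT lung, a log2 difference of 2.96 ± 0.09 (adjusted p = 7.49e-09). Spry2 (chr14:105891947-105896819, − strand) stood at 5.77, 6.11 and 5.95 CPM in WT liver and 47.2, 46.4 and 54.0 in WT lung, a difference of 3.04 ± 0.10 (adjusted p = 1.18e-08). The libraries of each WT group lay close together for both genes.

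**Figure D2:**
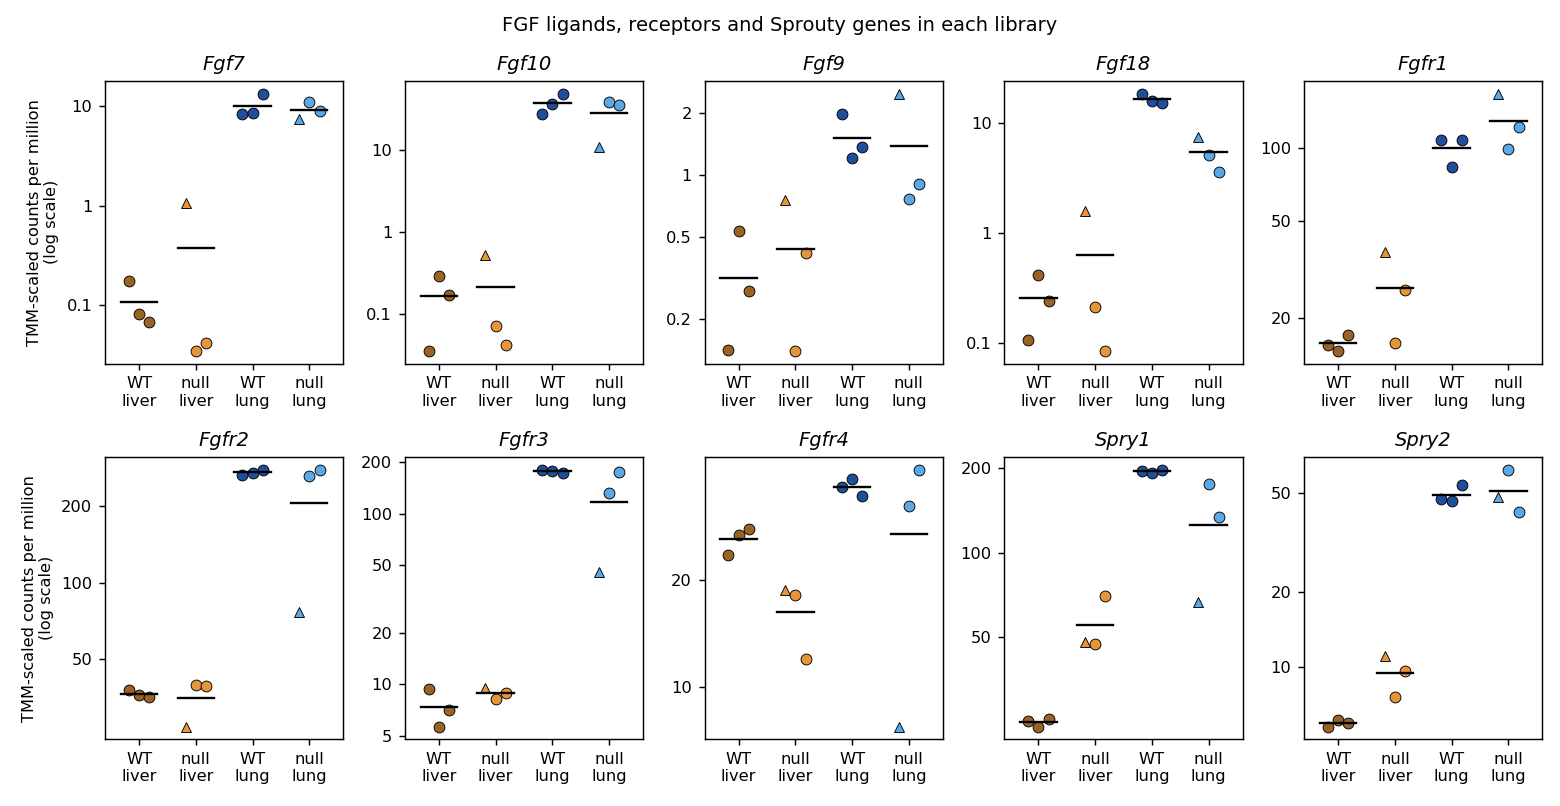
TMM-scaled CPM of the 10 members in each of the 12 libraries on log axes, with the group mean as a bar and triangles for the libraries labelled null liver 1 and null lung 1. Every member was higher in WT lung than in WT liver. Spry1 was higher in null than WT liver (47.1 to 70.0 against 23.9 to 25.5 CPM). It was lower in null than WT lung (66.7 to 176 against 193 to 198 CPM), where the difference was not called.

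Divided by exon length, the levels of different genes can be compared. In WT lung the ligands ran from Fgf18 at 15.2 ± 1.58 CPM per kb (SD, n = 3), through Fgf10 at 9.10 ± 2.56 and Fgf7 at 3.74 ± 1.04, to Fgf9 at 0.952 ± 0.252, and no neighbours in that order overlapped. The receptors ran from Fgfr2 at 56.6 ± 1.31 CPM per kb, through Fgfr3 at 40.3 ± 0.906 and Fgfr1 at 19.9 ± 2.76, to Fgfr4 at 11.04 ± 0.609, again without overlap. Spry1, at 78.5 ± 0.990 CPM per kb, exceeded Spry2, at 23.6 ± 2.01. The feedback gene Spry1 thus stood above every receptor in WT lung on this scale.

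The receptor make-up differed between the organs. Fgfr4 made up 38.8 ± 3.19% of the summed receptor level per kb in WT liver and Fgfr2 37.4 ± 1.68%, and the levels of these 2 overlapped between libraries. Fgfr1 followed at 15.5 ± 0.805% and Fgfr3 at 8.27 ± 2.14%. In WT lung Fgfr2 held 44.3 ± 1.15% and Fgfr3 31.6 ± 0.984%, while Fgfr4 held only 8.64 ± 0.63%. Fgfr1 took nearly the same share in both organs, at 15.5 ± 1.88% in WT lung. The summed level was 20.3 ± 0.513 CPM per kb in WT liver.

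**Figure D3:**
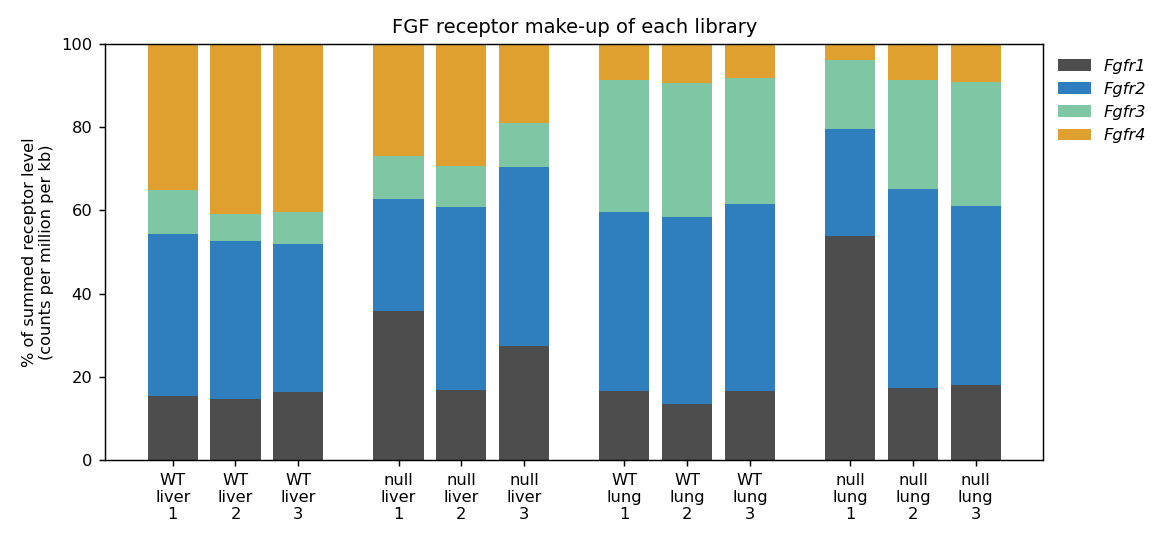
Share of each FGF receptor in the summed receptor level (CPM per kb of exon) of each library, in percent. Fgfr4 took 35.1 to 40.9% in WT livers and 18.9 to 29.2% in null livers, and Fgfr1 took 53.8% in the library labelled null lung 1 against 13.4 to 18.1% in the other lungs.

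The second comparison asked what the loss of Man1a2 changed in liver. In the main edgeR fit both Sprouty genes rose and Fgfr4 fell, while Fgfr1, Fgfr2 and Fgfr3 were not called. Of these calls, only that of Spry1 held whichever library was left out. Thus 3 of the 6 members with enough reads to be tested were called, where 26.9% of all genes were called, 13.5% as higher in null and 13.4% as lower. The 4 ligands were below the filter on low counts.

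Spry1 stood at 25.1, 23.9 and 25.5 CPM in WT livers and at 48.0, 47.1 and 70.0 in null livers. The groups did not overlap, as was so for 46.6% of all genes. The rise of 1.14 ± 0.17 on the log2 scale (SE, n = 3 per group, edgeR adjusted p = 0.00484), or 2.21-fold, was called whichever library was left out, at 0.92 to 1.24. Without null liver 1 it was 1.24 ± 0.18 (adjusted p = 0.00404).

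Spry2 rose by 0.66 ± 0.18 (adjusted p = 0.0326), from 5.77, 6.11 and 5.95 CPM to 11.1, 7.58 and 9.62. Its groups did not overlap either, and the highest value was that of null liver 1. Without that library the difference was 0.54 ± 0.19 and was no longer called (adjusted p = 0.0722), and leaving out each of the 6 libraries in turn kept the call in 1 fit. Of the 8 other alternatives, 6 called it. The ratio of Spry1 to Spry2 differed between null and WT liver by 0.47 on the log2 scale (exact permutation p = 0.2, two-sided), with overlap.

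Fgfr4 fell by 0.69 on the log2 scale (SE 0.18, adjusted p = 0.0274), from 23.5, 26.9 and 27.9 CPM in WT to 18.7, 18.1 and 11.9 in null livers, with no overlap. Null livers thus held 0.621 of the WT level, and without null liver 1 the log2 difference was -0.79 ± 0.19 (adjusted p = 0.0221). Of the 6 fits with 1 library removed, 3 called it, at -0.79 to -0.51, and was not called with all 12 libraries in 1 fit (adjusted p = 0.362). The share of Fgfr4 in the summed receptor level was 25.0 ± 5.44% in null livers (SD, n = 3), and its level per kb then overlapped that of Fgfr1.

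Fgfr1 stood at 37.5, 15.8 and 26.2 CPM in null livers against 15.5, 14.7 and 17.1 in WT, with overlap, and was not called (0.74 ± 0.28, adjusted p = 0.0841), although DESeq2 called it (adjusted p = 0.0291). Its highest value was in null liver 1, and without it the difference was 0.42 ± 0.22 (adjusted p = 0.191). Fgfr2 stood at 27.1, 39.4 and 39.3 CPM in null livers, the lowest being null liver 1, and differed by -0.05 ± 0.16 (adjusted p = 0.847). Fgfr3 stood at 9.54, 8.18 and 8.91 CPM (0.26 ± 0.22, adjusted p = 0.406).

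For the ligands, null liver 1 alone set the null values apart. It held 28 reads of Fgf7, 14 of Fgf10, 20 of Fgf9 and 42 of Fgf18, where the other null livers held 1 of Fgf7 each, 1 to 2 of Fgf10, 4 to 10 of Fgf9 and 2 to 6 of Fgf18. With every gene of at least 1 read kept, none of the 4 was called (adjusted p from 0.365 to 0.813).

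The third comparison was the same contrast in lung. None of the 10 members was called by edgeR, where 0.327% of all genes were called, and 1 member, Fgf18, had an unadjusted p under 0.05, as 25% of all genes did. DESeq2 called 1 of the 10 members, again Fgf18, where it called 15.1% of all genes.

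Fgf18 stood at 18.4, 15.9 and 15.1 CPM in WT lungs and at 7.53, 5.15 and 3.56 in null lungs. Every null lung was below every WT lung, as was so in either direction for 36% of all genes. The difference was -1.61 ± 0.31 on the log2 scale (edgeR adjusted p = 0.0687), or 0.329 of the WT level, and DESeq2 gave an adjusted p of 4.21e-05. The null lung with the highest Fgf18 was null lung 1, and without it the difference was -1.93 ± 0.20 (adjusted p = 0.000949), which was called. In that fit 37% of all genes were called. Across the fits that left out 1 library the difference ran from -1.93 to -1.38. The share of Fgf18 in the summed ligand level per kb was 52.7 ± 8.22% in WT and 32.0 ± 15.6% in null lung (SD, n = 3). It was 49.9% in null lung 1 and 25.4% and 20.9% in the other null lungs.

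Spry1 stood at 196, 193 and 198 CPM in WT lungs and at 66.7, 176 and 134 in null lungs, without overlap. The difference of -0.64 ± 0.34 was not called (adjusted p = 0.287), and it was -0.34 ± 0.13 without null lung 1 (adjusted p = 0.0671). Spry2 stood at 48.2, 62.2 and 42.1 CPM in null lungs against 47.2, 46.4 and 54.0 in WT, and its groups overlapped (0.05 ± 0.17, adjusted p = 0.892). The ratio of Spry1 to Spry2 was lower in every null lung than in every WT lung, by 0.78 on the log2 scale as a difference of means, with an exact permutation p of 0.1 (two-sided, the smallest that 3 against 3 allows). Over all 12 ratio tests of ligand, receptor and Sprouty pairs the adjusted p was 1.

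Fgf10 was 11.01 CPM in null lung 1 and 38.6 and 35.2 in the other null lungs, against 27.4 to 48.4 in WT. The difference was -0.41 ± 0.48 with null lung 1 and -0.03 ± 0.22 without it (adjusted p = 0.619 and 0.931). Fgf7 stood at 7.30, 10.9 and 8.81 CPM in null lungs (-0.15 ± 0.27, adjusted p = 0.755). Fgf9 stood at 2.48 CPM in null lung 1 and at 0.768 and 0.904 in the others (-0.13 ± 0.54, adjusted p = 0.9), and without null lung 1 its difference was -0.87 ± 0.31 (adjusted p = 0.0605).

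Fgfr2, Fgfr3 and Fgfr4 each had their lowest value in null lung 1. Fgfr2 stood at 76.6 CPM in null lung 1 and at 264 and 277 in the other null lungs, which lie beside the WT range of 267 to 279. Fgfr3 stood at 45.5, 132 and 175 CPM, against 173 to 181 in WT, so null lung 2 was below the WT range too. Fgfr4 stood at 7.70, 32.5 and 41.2 CPM, against 34.7 to 38.7 in WT. Without null lung 1 the differences were -0.01 ± 0.10 for Fgfr2, -0.21 ± 0.14 for Fgfr3 and 0.00 ± 0.13 for Fgfr4 (adjusted p = 0.929, 0.259 and 0.99). With it they were -0.40 ± 0.46, -0.60 ± 0.46 and -0.44 ± 0.55, and none was called (adjusted p = 0.611, 0.443 and 0.649). Fgfr1 went the other way, at 167, 99.1 and 122 CPM in null lungs, and its difference of 0.38 ± 0.24 was 0.14 ± 0.15 without null lung 1 (adjusted p = 0.358 and 0.486). Null lung 1 was thus the lowest library for 3 receptors and the highest for Fgfr1.

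**Figure D4:**
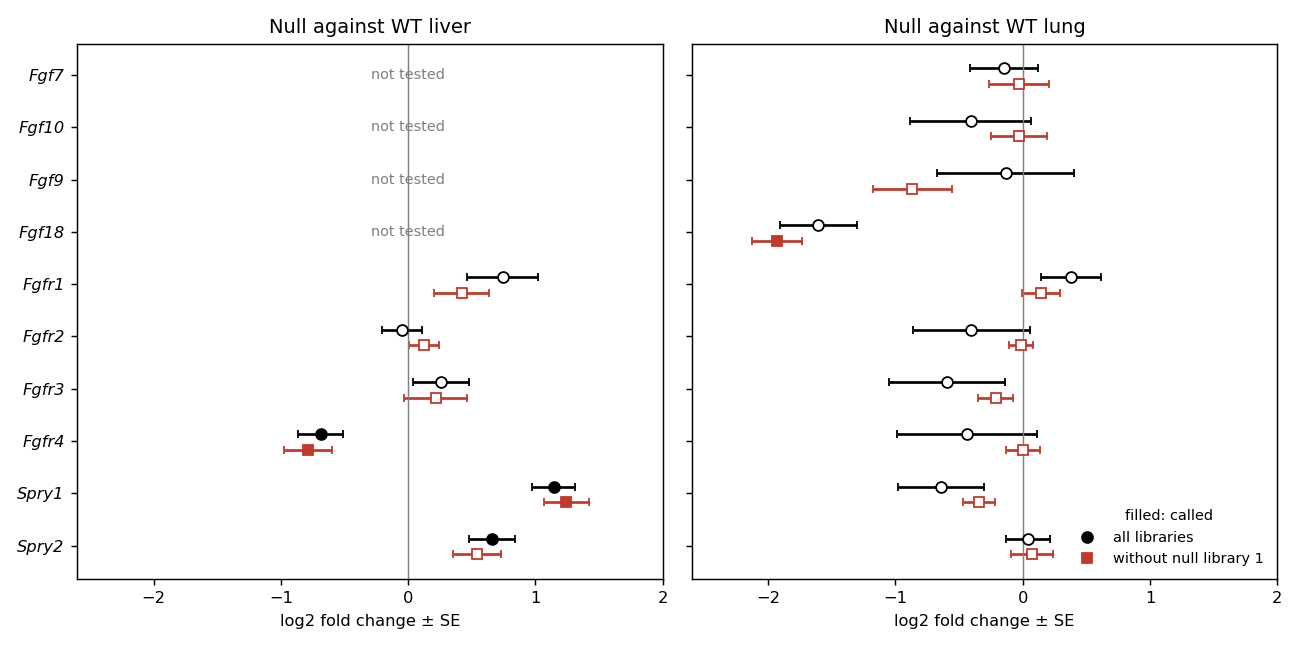
Log2 fold change of each member, null against WT, with its standard error, from edgeR, for all libraries (circles) and without null library 1 of that tissue (squares), and filled where called. In liver Spry1 and Fgfr4 were called in both fits, and in lung Fgf18 was called only without null lung 1 (-1.93).

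Whether the genotype acted differently in the organs was tested as an interaction in 1 fit of all 12 libraries, where 0.371% of all genes were called. No member was called by edgeR, and 3 had an unadjusted p under 0.05, as 13.9% of all genes did. Spry1 was the nearest: its genotype effect was lower in lung than in liver by 1.78 on the log2 scale (SE 0.41, unadjusted p = 0.00129, adjusted p = 0.0928). Every null liver was above every WT liver and every null lung below every WT lung, though the lung difference alone was not called. DESeq2 called the Spry1 interaction (adjusted p = 0.00476), as did edgeR without both null 1 libraries (-1.58 ± 0.23, adjusted p = 0.00508), where 5.18% of all genes were called. With liver and lung of the same number taken as a pair, the value was -1.87 (adjusted p = 0.137), and in that fit 0 genes were called over the whole table against 60 without pairing (2224 at an unadjusted p under 0.05). Fgf18 (-2.94 ± 1.13, adjusted p = 0.29) and Spry2 (-0.62 ± 0.24, adjusted p = 0.298) were the other members with an unadjusted p under 0.05. The Fgf18 value was -0.90 without null liver 1, which held 42 Fgf18 reads, and -1.25 without both null 1 libraries.

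In null mice the log2 difference between lung and liver was above 0 for every member, as in WT mice. Of the 10, 7 were called higher in null lung, where 45.7% of all genes were called and 24.1% were called higher. The log2 differences of those 7 ran from 1.19 ± 0.38 for Spry1 to 7.03 ± 1.05 for Fgf10. Fgf9 (1.66 ± 0.75, adjusted p = 0.119), Fgf18 (3.11 ± 1.04, adjusted p = 0.051) and Fgfr4 (0.74 ± 0.59, adjusted p = 0.341) were not called. Leaving out each library in turn kept the call of Spry1 in 1 of 6 fits (0.87 to 1.51) and that of Fgf7 in 2 of 6 (4.01 to 7.76, the highest without null liver 1). With liver and lung paired by number 9 members were called, Fgf9 and Fgf18 among them (adjusted p = 0.0326 and 0.0149), in a fit that called 7112 of 15508 genes, and without both null 1 libraries all 10 were, where 62.5% of all genes were called. Spry1 stood 2.29-fold higher in null lung than null liver against 7.79-fold in WT. Its null lung library 1, at 66.7 CPM, lay below null liver 3, at 70.0.

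The rest of the pathway was described from 4 lists, which were chosen with earlier results of these data known, so their counts and medians are descriptive. Among 18 other genes of the FGF family, 5 could be tested in liver, and 1 rose and 1 fell in null, beside 26.9% called over all genes. The list includes Fgf11, Fgf12, Fgf13 and Fgf14, which are not secreted ligands of the receptors. Fgf21, a hormone of the fasting liver, stood at 1.51, 2.02 and 5.95 CPM in WT livers and at 0.0377, 0.28 and 0.0841 in null livers (1 to 8 reads), a fitted log2 difference of -4.48 ± 0.78 (adjusted p = 0.00758). Fgf23, a hormone of phosphate balance, differed by 2.67 ± 0.82 (adjusted p = 0.0471) on 1 to 11 reads in WT livers and 11 to 38 in null livers. Both calls held without null liver 1.

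Among 12 co-receptors and binding partners, 2 of the 10 tested rose in null liver, where 13.5% of all genes rose. Klb, the partner of FGFR4, stood at 83.3, 76.3 and 79.6 CPM in WT livers and at 102, 99.1 and 99.5 in null livers (0.33 ± 0.09, adjusted p = 0.0355), and without null liver 1 the difference was as large (0.33 ± 0.11) but was not called (adjusted p = 0.0701). Klb was thus higher and Fgfr4 lower in null liver, each by less than 2-fold. Ncam1, a cell adhesion molecule that binds FGF receptors, stood at 22.9 CPM in null liver 1 and 6.22 and 6.51 in the others, against 3.34 to 4.34 in WT (1.61 ± 0.50, adjusted p = 0.0495), and without null liver 1 the difference was 0.73 ± 0.20 (adjusted p = 0.0364).

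Of 20 adaptors and signal transducers, all tested in liver, 7 rose and 3 fell, where 26.9% of all genes were called, with a median log2 difference of 0.18 against 0.02 over all genes. The docking proteins Gab2 (1.10 ± 0.12, adjusted p = 0.00254) and Frs2 (0.75 ± 0.12, adjusted p = 0.00603) and the RAS exchange factor Sos2 (0.88 ± 0.14, adjusted p = 0.00587) rose. So did the kinases Braf (0.51 ± 0.09) and Mapk3 (0.40 ± 0.09) and the ubiquitin ligase Cbl (0.74 ± 0.14), with adjusted p of 0.00736, 0.0152 and 0.0105. Frs3 (-1.14 ± 0.27), Plcg1 (-0.46 ± 0.11) and Hras (-0.45 ± 0.12) fell, and these 3 are named after their values were seen. Without null liver 1, 7 were higher and 2 lower.

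Of 20 other genes listed as feedback and target genes of FGF or ERK, 19 were tested in liver. In null, 4 rose and 1 fell, a share near the 26.9% of all genes, with a median of 0.75 against 0.02 over all genes. The RAS and ERK inhibitors Spred1 (0.93 ± 0.18, adjusted p = 0.0107) and Spred2 (0.88 ± 0.17, adjusted p = 0.0111), relatives of the Sprouty proteins, rose. Lrig3, a membrane protein that modulates receptor kinases, rose by 1.42 ± 0.19 (adjusted p = 0.00355) and Ier2, an immediate early gene, by 1.39 ± 0.30 (adjusted p = 0.0159). Shisa3, an FGF and Wnt antagonist, fell by 2.13 on the log2 scale (SE 0.50, adjusted p = 0.0203). The other 14 were not called, among them Dusp6 (0.45 ± 0.19, adjusted p = 0.11), Etv5 (0.32 ± 0.16, adjusted p = 0.182) and Spry4 (0.21 ± 0.39, adjusted p = 0.709). The largest uncalled differences were those of Egr1 (2.38 ± 0.88), Fos (2.04 ± 0.79) and Etv4 (1.38 ± 0.53), with adjusted p of 0.0795, 0.0906 and 0.0896. The groups overlapped for each of them. Ccnd1 went lower (-0.40 ± 0.20, adjusted p = 0.171). Without null liver 1, 5 of the 19 rose and 1 fell, with a median of 0.77.

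In null lung edgeR called 0 genes of all 4 lists. At an unadjusted p under 0.05 stood 2 other FGF family genes, 1 partner, 4 adaptors and 6 feedback genes, and 25% of all genes. In the same order of lists, DESeq2 called 2 of 7, 0 of 9, 1 of 20 and 2 of 19, where it called 15.1% of all genes. Without null lung 1 the counts called were 1 of 6, 3 of 10, 7 of 20 and 10 of 19, where 37% of all genes were called. Between WT lung and WT liver 17 of 19 feedback and target genes were higher in lung and 0 lower, where 39.8% of all genes were higher, at a median of 1.62 against 0.04 over all genes. Among them Etv5 (4.18 ± 0.12, adjusted p = 6.04e-09) is a branching target of FGF10 in lung. Klb (-9.33 ± 0.18, adjusted p = 2.77e-09) and Fgf21 (-5.57 ± 0.68, adjusted p = 5.3e-05) were higher in liver.

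Across all 12 libraries, the genes most like each member in log2 level were found for description. The points share the split between organs and the null 1 libraries. Gnb4 (r = 0.997) lay near Fgf10. Nearest to Fgf7 were Rnf39 (r = 0.995) and Nuak1 (r = 0.995), to Fgf18 Meox2 (r = 0.99) and Gdf5 (r = 0.988), and to Fgf9 S100a10 (r = 0.974) and Timp1 (r = 0.965). The receptors lay nearest to Sestd1 and Zfp651 (Fgfr1, r = 0.992 for both), Nkd1 and Gdpd2 (Fgfr2, 0.995 for both), Pwwp2b and Slc1a3 (Fgfr3, 0.996 and 0.995), and Vav2 and Arfgef2 (Fgfr4, 0.977 and 0.971). Spry1 lay nearest to Trp53bp2 (r = 0.987) and Itpkb (r = 0.986), and Spry2 to Fam181b (r = 0.996) and Itgb1 (r = 0.995). Fgf9 and Fgfr4 had the loosest matches.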

How the data were processed

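Liver and lung of newborn WT and null mice were profiled, with 3 libraries per group, grouped and numbered by their labels. The authors made stranded polyadenylated libraries read as 75 bp pairs. They deposited raw counts, whole numbers of reads per gene symbol in 1 table per library, without normalization. The submitters' processing notes name FastQC, STAR 2.5.2a, DESeq2 and mm10. The annotation and the counting program, and whether it used strand, are not given in the sources used here. A spreadsheet had changed 27 symbols to dates. The tables held 0 other columns of per-sample values.

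The tests were run with edgeR 4.0.16 under R 4.3.3 (filterByExpr, TMM, quasi-likelihood test, Benjamini-Hochberg adjustment over all genes tested), and DESeq2 1.42.0 was an alternative. Each standard error is the log2 difference divided by the root of its F value. Exon lengths came from GENCODE M21 transcripts linked to RefSeq, and 95.6% of genes had one. Exact permutation tests used log2(CPM + 0.5), where 3 against 3 cannot go below p = 0.1. The ratio tests added 0.5 to each count. The scripts were tested on simulated data. P-values measure the spread between these libraries, and intervals of counting error were not computed.

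Liver and lung of each genotype and number deviated together (r = 0.184 to 0.468 over 6 pairs), and the study took both tissues from the same mice, so the numbers pair the tissues. The main fits, the DESeq2 fits and the fits without null 1 libraries did not use this pairing. Within each group no library was a copy of another (lowest chi-square per gene 15.0), and libraries of different groups were not compared in this way. The members and lists were chosen with earlier results of these data known. All 10 members are named, and of each list the genes called in liver or in the interaction, at most 6 by smallest p. The 2 genes most correlated with each member are also named, of which 1 is not reported here. Other genes were named after their values were seen. Of the listed genes, 2 were absent from the tables. The alternatives were other scaling factors, filters, fits, blocks and samples. Proteins were not used here.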

Additional observations from a re-analysis of the deposited data

Results flagged for a closer look

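Spry1 stood out because its values ran in opposite directions in the organs. Every null liver lay above every WT liver (47.1 to 70.0 against 23.9 to 25.5 CPM), and 46.6% of all genes had no overlap there. Every null lung lay below every WT lung (66.7 to 176 against 193 to 198 CPM), and 36% of all genes had no overlap there. The lowest of these, at 66.7 CPM, was null lung 1. The lung difference alone was not called by edgeR (-0.64 ± 0.34, adjusted p = 0.287). Without null lung 1 it was -0.34 ± 0.13 (adjusted p = 0.0671). The genotype effect in lung minus that in liver was -1.78 on the log2 scale, and edgeR's quasi-likelihood test of this difference gave an adjusted p of 0.0928. Over the alternatives to that fit the value ran from -2.10 to -1.46. The interaction was called by DESeq2, without null lung 1 and without both null 1 libraries. It was not called with liver and lung of the same number taken as a pair, where the value was -1.87. With 3 libraries per group, no group was large enough to test a single library as an outlier.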

How the results depend on the processing

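Of the members, Spry1 in liver was called under every alternative run, and the tissue differences between WT lung and WT liver were called except Fgfr4 with all 12 libraries in 1 fit. Under a minimum of 10 counts per library, 6 members could be tested between the WT tissues and 6 were called, since the 4 ligands dropped out. Leaving out 1 library moved the members called in liver from 3 to between 1 and 4, in lung from 0 to between 0 and 1, and in the interaction from 0 to between 0 and 1. DESeq2 called 1 member in lung and 1 in the interaction, as did the interaction without both null 1 libraries, an alternative chosen after seeing the data (840 genes called).

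Counts over all genes moved more. In liver 3856 genes were called, 1921 with all 12 libraries in 1 fit, and 1641 to 3451 without 1 library. Upper-quartile factors moved the median liver difference from 0.02 to -0.09 and the split from 1931 higher of 3856 to 1434 higher of 4100. In lung 51 were called, against 2 with DESeq2 size factors, 109 with upper-quartile factors, 5 without the 20 most abundant genes, 210 under a minimum of 10 counts per library, 0 with at least 1 count in all (4096 at an unadjusted p under 0.05), 2355 by DESeq2, 2284 with all 12 libraries in 1 fit, and 0 to 5881 without 1 library, the highest being without null lung 1. The interaction had 60, against 92 with at least 10 counts, 33 with at least 1 count, 610 by DESeq2 and 0 to 813 without 1 library, again the highest without null lung 1. Between null lung and null liver 7088 were called, and 4458 to 9554 without 1 library. The cause of these moves was not tested.

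WT and null numbers do not pair mice (r from -0.0244 to 0.143 in liver and -0.043 to 0.0992 in lung, and 2 of 6 libraries correlated best with their own number in each). With the number as a replicate block, 2 members were called in liver and 0 genes in lung (2743 at an unadjusted p under 0.05). Pairing of liver with lung left 0 genes in the interaction, turned the Fgfr4 interaction to -0.0011, and otherwise changed no member's call but those of Fgf9 and Fgf18 between null tissues.

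Over the fits without 1 library, members' differences ran from -0.79 to 1.24 in liver, from -1.93 to 0.55 in lung and from -3.45 to 1.29 in the interaction. Leaving out 1 library turned the sign of uncalled values, which then ranged in liver for Fgfr2 from -0.15 to 0.12, in lung for Fgf9 from -0.87 to 0.16, Fgf7 from -0.30 to 0.10, Fgfr4 from -0.87 to 0.00 and Spry2 from -0.11 to 0.16, and in the interaction for Fgf7 from -2.46 to 1.29, Fgf10 from -1.43 to 1.04, Fgf9 from -1.32 to 0.04, Fgfr2 from -0.61 to 0.05 and Fgfr4 from -0.16 to 0.71. Without both null 1 libraries the Fgf7 and Fgf10 interactions were 1.41 and 1.39. The liver ligands of the 10 rest on 1 to 42 reads a library, so depth limits their values.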
